A study of Mus musculus with 4 samples.

Results

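Contacts of a promoter and of an enhancer that lie next to each other in the mouse Tcra/Tcrd locus were compared within one cell population, double-negative (DN) thymocytes. The promoter is TEA (T early alpha), and the enhancer is Ed (E-delta), the enhancer of Tcrd. The comparison uses 4 libraries, TEA and Ed from each of 2 DN samples, out of 16 libraries and 4 samples in the series. Libraries of one replicate number were amplified from the same DNA template, so TEA and Ed were paired by replicate. DN cells were thymocytes of C57BL/6 Rag2-/- mice aged 3 weeks, pooled from litters. Both DN groups carry the Rag2 deletion, so neither holds rearranged receptor genes. Separate litters are not stated for the replicates, and p-values here reflect only the spread between these samples, which may be technical. The same 2 viewpoints in naive B cells from the spleen of wild-type C57BL/6 mice (2 samples, 4 libraries) serve as a control cell type, with no age in the labels. No expression was measured, so the labelled cell types could not be checked against marker genes.

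4C-seq reads the fragments that were ligated to one chosen fragment, the viewpoint, after crosslinked chromatin was cut and religated, here with HindIII. Tcrd lies inside Tcra. On the chromosome, most variable (Trav) segments come first, then the D, J and constant segments of Tcrd, and then the Jalpha segments and the Tcra constant gene. TEA is a germline promoter at the start of the Jalpha array, known for driving transcription through the first Jalpha segments. Ed is known as the enhancer that is active when Tcrd recombines in DN thymocytes. INT1 and INT2 are the other viewpoints of the study. Their names are not explained in the labels, and they are used here only as positions.

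On chromosome 14 of build mm9, the TEA viewpoint fragment spans 54769627 to 54773311 and the Ed fragment 54763263 to 54765182. INT2 spans 54680988 to 54683873, and INT1 spans 54677060 to 54677623. Ed and TEA are 4.44 kb apart, edge to edge, and INT2 lies 79.4 kb below Ed and 85.8 kb below TEA, where "below" means lower coordinates, the Trav side. All fragments between 54752000 and 54784000, which hold both viewpoints and their neighbours, were left out. Each value is a fragment's share of all chromosome 14 reads outside that stretch of 32 kb. Chromosome 14 was divided into 9 regions. These were the INT region (INT1, INT2 and 10 kb around them), the part between INT and the stretch, the Trav side (500 kb below INT), the distal Trav side (the next 1 Mb), the Jalpha side (100 kb above the stretch), the flank (from there to 1 Mb above), an intermediate region on each side up to 5 Mb from the stretch, and far chromosome 14. Positions are given without gene assignments, because the annotation at hand is of another build.

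The TEA libraries held 2037531 and 9988342 mapped reads and the Ed libraries 1220738 and 3227300. Of these, 226545 and 2388905 reads from TEA and 103332 and 574501 reads from Ed fell on chromosome 14 outside the stretch. TEA thus had more reads than Ed in each replicate, and a share at 0 allows up to 0.00290% and 0.000522% (3 reads) in Ed replicates 1 and 2. PCR reads carry no molecular identifiers here, so such limits and intervals cover counting error only. TEA captured 445 and 484 of the 593 fragments within 1 Mb of the stretch, and Ed captured 211 and 342. The 593 are the fragments seen in 1 or more of the libraries read here, those of INT1 and INT2 included. Reads within 1 Mb made up 51.7% and 72.9% of the chromosome 14 reads from TEA and 41.1% and 58.5% from Ed.

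The series' title concerns a chromatin loop in this locus, and INT was the region in which the 2 viewpoints differed most. TEA placed 11.7% and 16.8% of its reads on the INT region, and Ed placed 0.907% and 1.07% (replicates 1 and 2). The mean was 14.2% ± 3.64 from TEA and 0.988% ± 0.115 from Ed (SD, n = 2). The counting error is far smaller than this gap, with 95% Wilson intervals of 11.5% to 11.8% for TEA replicate 1 and 0.851% to 0.966% for Ed replicate 1. The difference was 14.2-fold, or 3.83 on the log2 scale (SE 0.35, 95% interval 3.04 to 4.62), with an adjusted p of 1.49e-05 in limma over the 9 regions. It was 3.68 in replicate 1 and 3.97 in replicate 2. The SE was the same, 0.35, for all 9 regions, so limma used a spread pooled over the regions and not that of INT alone. Shares of the regions also add up to a fixed total, so the regions are not independent. INT was the 1 region of 9 (11.1%) called higher from TEA, and 0% of regions were called higher from Ed.

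**Figure D1:**
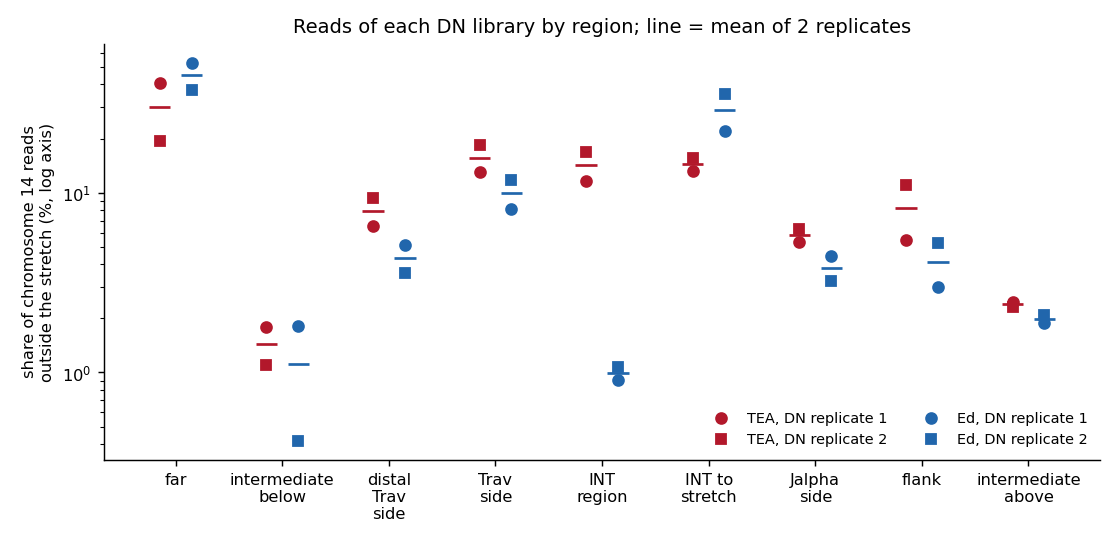
Share of chromosome 14 reads outside the stretch (%, log axis) in each of the 9 regions for the 4 DN libraries, TEA in red and Ed in blue, circles for replicate 1 and squares for replicate 2, with a line at the mean. In the INT region TEA stands at 11.7% and 16.8% and Ed at 0.907% and 1.07%, while between INT and the stretch both Ed libraries (21.9% and 35.4%) stand above both TEA libraries (13.3% and 15.5%).

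The excess from TEA sat on few fragments. Of the 11 fragments of the INT region, the 3 directly above INT2 (54683880 to 54693461) held 9.84% and 14.6% of the reads from TEA and 0.165% and 0.0336% from Ed. They made up 84.5% and 86.9% of the INT reads from TEA, and 18.2% and 3.14% of those from Ed. The first of them, at 54683880 to 54688070, was the most contacted fragment of TEA within 1 Mb. It took 7.29% and 10.5% from TEA (16523 and 249922 reads) and 0.0571% and 0.0127% from Ed (59 and 73 reads). The next fragment, at 54688077 to 54690201, took 1.77% and 2.80% from TEA and 0.0977% and 0.00122% from Ed. No Ed library came near a TEA library on these fragments.

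On the other 8 INT fragments the gap was smaller. They held 1.81% and 2.19% of the reads from TEA and 0.741% and 1.04% from Ed. The fragment between INT1 and INT2 (54677630 to 54680981) was higher from Ed in both replicates, at 0.674% and 0.278% against 0.195% and 0.124% from TEA. At 54672562 to 54675021 the libraries were close, with 0.0733% and 0.0778% from TEA and 0.0600% and 0.0736% from Ed. INT2's own fragment took 0.487% and 0.162% from TEA, and from Ed 0 reads in replicate 1 and 0.000870% in replicate 2. Ed therefore recorded some INT fragments as often as TEA did and others hardly at all.

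The fragments that carry the excess were also nearly unrecorded from Ed in B cells. At 54683880 to 54688070 TEA placed 1.49% and 1.46% of its reads in B cells, while Ed had 3 reads in sample 1 and 0 reads in sample 2, which allows up to 0.000791%. With only the fragments that had at least 10 reads in every B library of both viewpoints (62 on chromosome 14, 2 of them in INT), the INT difference in DN was 0.18 on the log2 scale (limma adjusted p 0.908). With those that had 10 reads in 1 or more B libraries of each viewpoint (1053, of which 3 in INT), it was 0.79 (limma adjusted p 0.288). Both selections, chosen after the values were seen, end the call. They leave out the 3 fragments above INT2 that held most INT reads from TEA. The loss of the call thus follows largely from the selection and does not measure how firm the difference is. Taking 20 kb around the INT viewpoints also ended the call (2.75, limma adjusted p 0.108). Counting each captured fragment once, in units of each library's captured fragments, turned INT to -1.07 (limma adjusted p 0.000104) and also turned the Trav, distal Trav, Jalpha and flank differences below 0. TEA captured all 11 INT fragments in both replicates among 5520 and 4242 on chromosome 14, and Ed captured 7 and 10 among 1712 and 1794. What part the fragments that Ed hardly recorded in either cell type have in the INT difference was not tested.

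**Figure D2:**
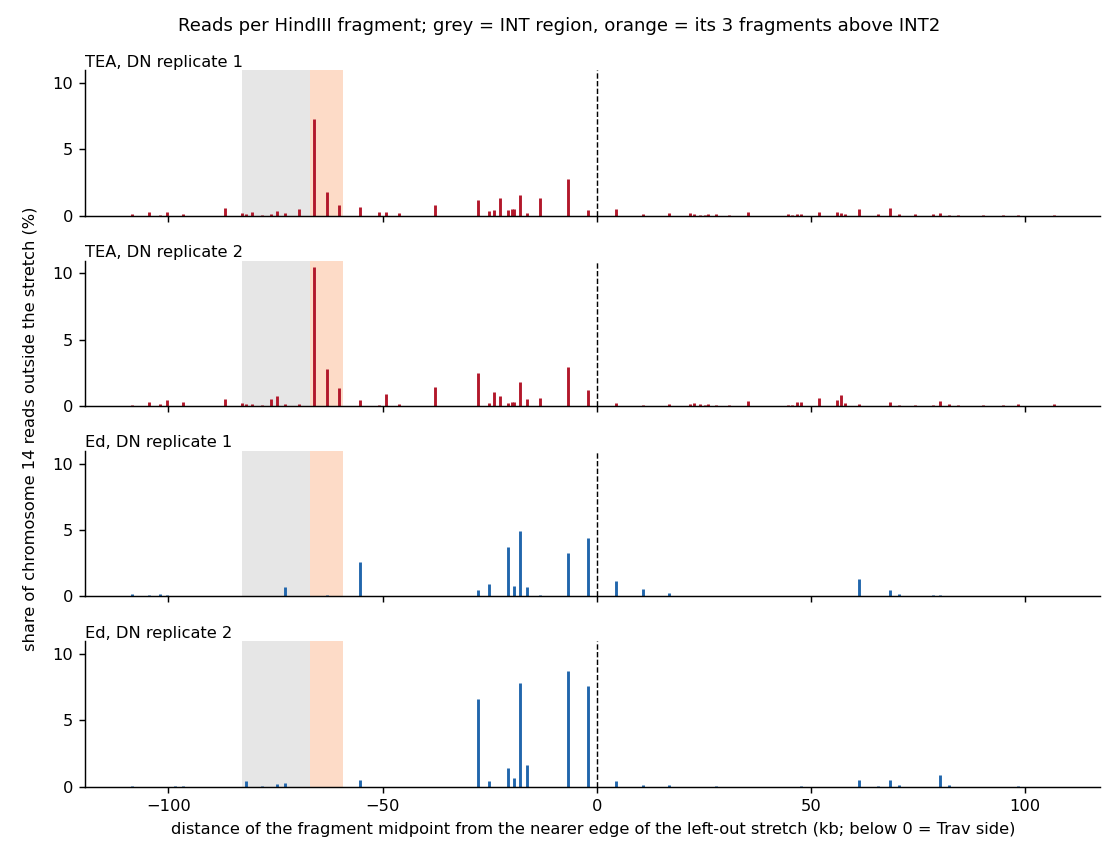
Share of chromosome 14 reads outside the stretch (%, vertical axis) per HindIII fragment in the 4 DN libraries, against the distance from the nearer edge of the left-out stretch (kb), with the INT region in grey and its 3 fragments above INT2 in orange. The tallest TEA line, 7.29% and 10.5%, stands in the orange area, where the Ed panels show no visible line, and the tallest Ed lines stand within 30 kb below the stretch.

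Contacts with INT can also be read the other way, from INT1 and INT2 towards the Ed and TEA fragments, in 4 further DN libraries. This covers the INT1 and INT2 fragments only, not the 3 fragments above INT2 that held most INT reads from TEA. INT2 placed 6.33% and 3.41% of its chromosome 14 reads outside the INT region on the TEA fragment and 1.07% and 0.851% on the Ed fragment. The TEA fragment was thus recorded 5.91 and 4.00 times as often as the Ed fragment. INT1 placed 0.617% and 1.16% on the TEA fragment and 0.377% and 0.541% on the Ed fragment, ratios of 1.64 and 2.15. In all 4 libraries TEA was the most recorded of the 13 fragments inside the stretch, and Ed ranked 3 to 5. The TEA fragment is longer (3685 bp against 1920 bp). Per kilobase the ratios were 3.08 and 2.09 from INT2 and 0.853 and 1.12 from INT1. The views differed for the pair of INT2 and Ed. INT2 had 2183 and 9320 reads on the Ed fragment, but Ed had 0 and 5 reads on INT2's fragment. The reason was not tested. Both views place more INT contact on TEA than on Ed per fragment. Per kilobase of the TEA and Ed fragments, INT2 did so in both replicates and INT1 in replicate 2 only. The ratios from INT lie below the 14.2-fold seen from TEA and Ed over the whole INT region. The ratios are within libraries and have no test here.

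Between INT and the stretch the order of the viewpoints was the opposite. Ed placed 21.9% and 35.4% of its reads there and TEA 13.3% and 15.5%, so both Ed libraries lay above both TEA libraries. The log2 difference was -0.96 (SE 0.35, 95% interval -1.75 to -0.17), which did not pass in limma (adjusted p 0.0680). Under a mean-variance trend in limma it passed (adjusted p 0.0203), as it did in edgeR (adjusted p 0.0260), while with fragments capped at the 95th percentile it was -0.15 (limma adjusted p 0.520). The Ed fragment starts 6.36 kb below the TEA fragment and so lies nearer to this part. What that distance contributes was not tested.

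Ed's reads here were concentrated on few fragments. The leading fragment of Ed within 1 Mb was 54733266 to 54735091, 17.8 kb below the stretch, with 4.91% and 7.80% from Ed and 1.58% and 1.80% from TEA. Next came 54748881 to 54751228, which borders the stretch, with 4.42% and 7.57% from Ed and 0.419% and 1.23% from TEA. On both, the 2 Ed libraries were higher than the 2 TEA libraries. The fragment at 54741524 to 54748874 took 3.24% and 8.72% from Ed and 2.80% and 2.92% from TEA. At 54722436 to 54726136 the Ed replicates were far apart, at 0.466% and 6.65%, on either side of the 1.16% and 2.52% from TEA. The 54730571 to 54731951 fragment took 3.75% and 1.40% from Ed and 0.467% and 0.212% from TEA. These 5 lead from Ed, and 3 of them are also among the 5 leading fragments of TEA.

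Other fragments in the same part were nearly empty from Ed. Of its 21 fragments, 17 held at least 0.05% of the TEA reads in both replicates, and on 7 of those 17 Ed was under 0.01% in both. The long fragment at 54706512 to 54721932 took 0.792% and 1.41% from TEA and 0.00194% and 0.00801% from Ed. The fragment at 54728515 to 54730564 took 1.34% and 0.751% from TEA and 0.00387% and 0.00435% from Ed, next to one on which Ed was higher (54730571 to 54731951). On the 9 fragments where all 4 libraries reached 0.05%, Ed held 21.8% and 35.4% and TEA 8.14% and 10.2%. Fragments side by side thus had opposite orders of the viewpoints.

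The Trav side, where the variable segments lie, took 13.0% and 18.3% of the reads from TEA and 8.14% and 11.8% from Ed. TEA was higher in both replicates and the groups do not overlap, with a log2 difference of 0.65 (SE 0.35, 1.57-fold) that did not pass in limma (adjusted p 0.120). The distal Trav side took 6.57% and 9.34% from TEA and 5.14% and 3.57% from Ed, a log2 difference of 0.87 (SE 0.35, limma adjusted p 0.0773). Neither region was called. Some fragments of the distal Trav side had the same shares as a fragment of the Trav side. An example is 0.105% and 0.250% from TEA at both 865 and 484 kb below the stretch. The regions are therefore not fully separate evidence, and the source of the equal values was not tested. With the trend in limma or in edgeR, both passed, at adjusted p of 0.0371 and 0.0203 with the trend and 0.0380 and 0.0286 in edgeR.

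Single Trav fragments showed both orders of the viewpoints. The one most contacted by TEA, 54527060 to 54532525, took 0.223% and 1.03% from TEA and 0.0387% and 0.00122% from Ed. At 54662192 to 54668467, which borders the INT region, TEA had 0.555% and 0.566% and Ed 0.00774% and 0.000870%. Ed instead led at 54407375 to 54411753, with 0.107% and 2.09% against 0.117% and 0.536% from TEA, a lead that rests on replicate 2. It also led at 54521622 to 54524569, with 0.197% and 0.866% against 0.121% and 0.0766%. Of the 160 Trav fragments 59 held at least 0.05% from TEA in both replicates, 23 from Ed and 15 from both viewpoints. On those 15 TEA held 2.71% and 3.35%, and Ed held 3.43% and 6.92%.

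The Jalpha side, directly above the stretch, took 5.29% and 6.30% from TEA and 4.45% and 3.21% from Ed. Both TEA libraries lay above both Ed libraries. The log2 difference of 0.61 (SE 0.35, 95% interval -0.18 to 1.40) did not pass in limma (adjusted p 0.128). The fragment most contacted by Ed, 54841960 to 54848613, took 1.30% and 0.537% from Ed and 0.527% and 0.190% from TEA. A nearby fragment at 54840407 to 54841811 was the one most contacted by TEA, with 0.205% and 0.829%, and Ed had 0.00290% and 0.00122% there. At 54850911 to 54854021 the viewpoints were close, with 0.577% and 0.332% from TEA and 0.505% and 0.524% from Ed.

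The flank took 5.46% and 11.0% from TEA and 2.99% and 5.24% from Ed. The log2 difference of 0.97 (SE 0.35) did not pass in limma (adjusted p 0.0680), and it passed with the trend (limma adjusted p 0.0150) and in edgeR (adjusted p 0.0168). The intermediate region below took 1.78% and 1.11% from TEA and 1.82% and 0.416% from Ed, so the groups overlap (0.69, limma adjusted p 0.120). The intermediate region above took 2.48% and 2.32% from TEA and 1.88% and 2.09% from Ed (0.28, limma adjusted p 0.449), a difference that turned to -0.22 with TMM factors and to -0.048 with library size within 1 Mb. Of these 3 regions the flank and the intermediate region above had both TEA libraries above both Ed libraries.

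Recorded and nearly unrecorded fragments were also counted over the whole 1 Mb on each side. Of the 593 fragments, 154 held at least 0.05% of the TEA reads in both DN replicates, and on 73 of these Ed stayed under 0.01% in both. Ed was that low on 408 of all 593, a larger proportion, so it was low less often where TEA was high than over all fragments. The 593 include fragments without reads from TEA or Ed in either cell type, such as 54703115 to 54703856. Such fragments add to the counts of low fragments over all 593. Those 73 held 26.4% and 25.7% of the TEA reads within 1 Mb. On 65 of the 73, Ed was also under 0.01% in both B libraries, which was the common state, found on 451 of all 593 fragments. TEA reached 0.01% in both B libraries on 42 of the 73 and on 138 of all 593. In the other direction 61 fragments held at least 0.05% from Ed in both replicates, and TEA was under 0.01% in both on 2 of them. The cutoffs of 0.05% and 0.01% were set after the values were seen. Some fragments of the distal Trav side repeat the shares of Trav side fragments, so these counts take in some values more than once.

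Where both viewpoints recorded a fragment, Ed was more often the higher one. All 4 DN libraries reached 0.05% on 40 fragments, among them fragments of the distal Trav and Trav sides with equal Ed shares. The mean share was higher from Ed on 31 of these and from TEA on 9, with a median log2 ratio of TEA over Ed of -0.996. Shares add up to a fixed total, and the reads of Ed fell on fewer fragments. The 10 leading fragments held 58.3% and 65.9% of Ed's reads within 1 Mb and 37.7% and 36.4% of TEA's. From TEA 23 and 25 fragments were needed to reach 50% of those reads, and from Ed 7 and 4. In B cells it took 26 and 31 from TEA and 5 and 7 from Ed, so this contrast of the viewpoints was present in both cell types.

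**Figure D3:**
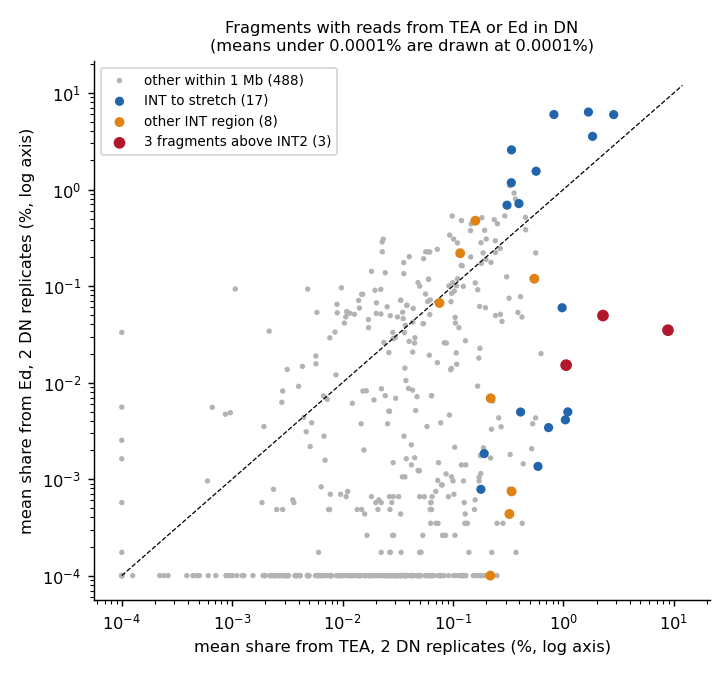
Mean share of chromosome 14 reads per fragment within 1 Mb from Ed against that from TEA in DN (%, both axes log, 2 replicates each), with INT and INT-to-stretch fragments in colour and means under 0.0001% drawn there. Fragments with shares above 0.05% from Ed lie mostly near or above the dashed line of equality, while many with TEA shares above 0.05% lie far below it, the 3 fragments above INT2 among them.

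To locate differences without a chosen target, 10 kb windows within 1 Mb were tested. Of 183 windows, 39 were called higher from TEA (21.3%) and 1 higher from Ed (0.546%) in limma. In log2 of the scaled RPM (reads scaled to the library size) plus 10, the median window was 2.66 in favour of TEA, with 148 windows above 0 and 35 below. Both TEA libraries lay above both Ed libraries in 101 windows, and both Ed libraries above both TEA libraries in 18. The filter used the mean of all 4 libraries, so a window could pass it through TEA alone. On 36 of the 39 windows called for TEA, Ed was under 0.01% in both DN replicates, and on 29 Ed was under 0.01% in both B libraries. Among all 183 tested windows Ed was that low in DN on 68 and in B on 77. Some windows of the distal Trav and Trav sides hold fragments with equal shares, so the windows are not all separate evidence. The 39 windows were spread over both sides, 21 below and 18 above the stretch, with 11 of 48 tested on the Trav side, 7 of 37 on the distal Trav side, 1 of 2 in INT, 2 of 7 between INT and the stretch, 2 of 11 on the Jalpha side and 16 of 78 on the flank.

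In limma 17 windows share the smallest adjusted p, 0.0309, and the 10 of them with the smallest unadjusted p are named here. They start at 53.89 Mb on the distal Trav side, at 54.27, 54.43 and 54.46 Mb on the Trav side, at 54.7 Mb between INT and the stretch, and at 54.9, 54.91, 55.1, 55.12 and 55.17 Mb on the flank. The windows from 53.89 and 54.27 Mb each hold a fragment with the same TEA shares (0.124% and 0.221%), so they are not separate evidence. The source of the equal values was not tested. The window from 54.46 Mb led, with 0.366% and 0.605% from TEA and 0 reads and 0.00191% from Ed (log2 difference 8.11, SE 0.83). The window from 54.7 Mb, above INT, took 0.722% and 1.20% from TEA and 0.00290% and 0.00505% from Ed (7.58, SE 0.93). From 54.91 Mb TEA had 0.134% and 0.287% and Ed had 0 reads in both replicates. The mean share from TEA was at least 123-fold the mean of the Ed limits of 3 reads (0.00290% and 0.000522%). Within replicate 1 alone the bound is lower. These windows stand apart through near absence of Ed reads, and fold changes of such low shares depend on the pseudocount. The 1 window called for Ed starts at 54.75 Mb and holds the fragment that borders the stretch, at 4.42% and 7.57% from Ed against 0.419% and 1.23% from TEA (log2 difference -3.01, SE 0.54, limma adjusted p 0.0390). Ed lies nearer to that window than TEA does, and what the distance contributes was not tested.

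The count of called windows depended on the method. With library size over all chromosomes 0 windows passed in limma in either direction, against 48 and 1 at an unadjusted p under 0.05, and edgeR on recovered reads called 14 for TEA and 0 for Ed. Without Ed replicate 1 limma called 70 for TEA and 7 for Ed, and without Ed replicate 2 it called 73 and 3.

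**Figure D4:**
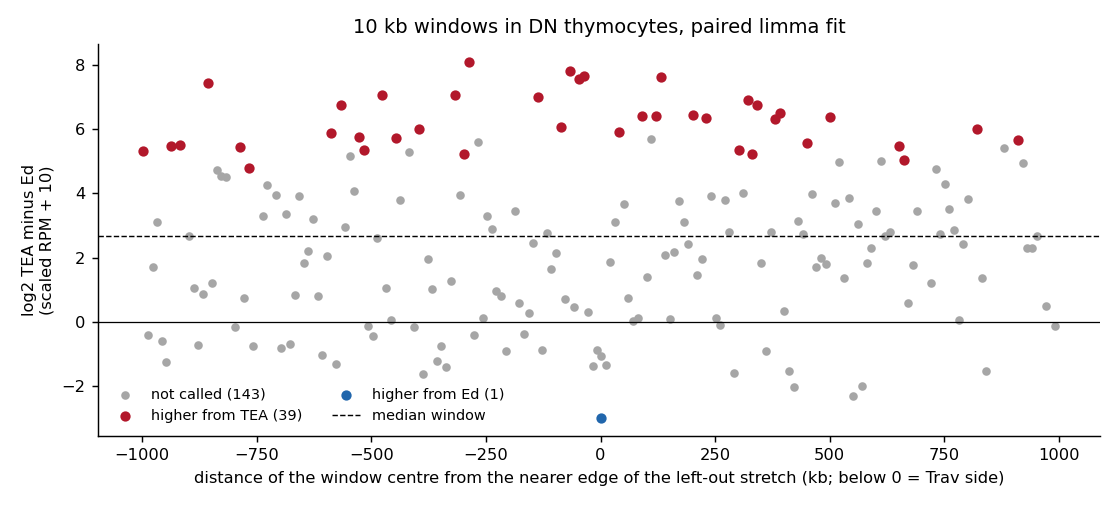
Fitted log2 difference TEA minus Ed (scaled RPM + 10) of the 183 tested windows of 10 kb in DN against their distance from the nearer edge of the left-out stretch (kb), with called windows in colour and a dashed line at the median window. The 39 windows called for TEA lie on both sides up to 1 Mb away, all above the median of 2.66, and the 1 window called for Ed lies at the edge of the stretch.

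Far chromosome 14, more than 5 Mb from the stretch, took 40.5% and 19.3% of the reads from TEA and 52.7% and 37.2% from Ed. TEA was lower than Ed within each replicate, but the groups overlap, and the log2 difference of -0.66 (SE 0.35) did not pass in limma (adjusted p 0.120). In 1 Mb windows, 0 of 114 passed in limma in either direction (0% and 0%), against 2 higher from TEA and 4 higher from Ed at an unadjusted p under 0.05. In edgeR 0 passed too, with 0 and 1 at an unadjusted p under 0.05. The median window was 0.18. With fragments capped at the 95th percentile of captured fragments, limma called 4 windows higher from Ed and 0 higher from TEA, and without Ed replicate 2 it called 2 and 1.

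The largest differences in favour of Ed were in the windows from 82 and 18 Mb. The window from 82 Mb held 2.20% and 1.79% from Ed and 0.279% and 0.0707% from TEA (limma adjusted p 0.328). The window from 18 Mb held 1.79% and 1.75% from Ed and 0.527% and 0.0597% from TEA (limma adjusted p 0.627). Both Ed libraries lay above both TEA libraries in each. The largest in favour of TEA, from 125 Mb, held 0.0931% and 0.185% from TEA and 0 reads and 0.0682% from Ed (limma adjusted p 0.841). In Ed replicate 2 a single fragment, 80970102 to 80976337, held 8.05% of the chromosome 14 reads (46254 reads), while Ed replicate 1 and both TEA libraries had 0 reads on it. Without it the log2 difference between INT and the stretch was -1.02 and passed in limma (adjusted p 0.0466), and 2 regions were called in place of 1.

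Whether either viewpoint leans more to one side was asked from the ratio of reads below to reads above the stretch. Distances were equal from the edges of the stretch, and the ratio needs no library size. Ed lies nearer the lower edge and TEA nearer the upper edge. Distances from the viewpoints themselves are therefore not equal, and they differ in opposite ways for Ed and TEA. Within 100 kb this ratio was 4.85 and 5.28 from TEA and 5.16 and 11.4 from Ed, so both viewpoints had more reads on the Trav side. From 100 to 500 kb it was 2.83 and 1.83 from TEA and 3.21 and 2.73 from Ed. From 500 kb to 1 Mb it was 2.75 and 3.01 from TEA and 4.89 and 1.96 from Ed. The log2 difference TEA minus Ed was -0.60 ± 0.72, -0.38 ± 0.28 and -0.10 ± 1.02 (SD of 2 pairs). An exact paired permutation test, two-sided, gave p = 0.5, 0.5 and 1, and 0.5 is the smallest p that 2 pairs allow.

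In B cells the same comparison gave an INT difference within the error of that in DN. TEA placed 2.62% and 2.76% on INT there and Ed 0.217% and 0.198%, a log2 difference of 3.69. The difference in DN exceeded that in B by 0.14 (SE 0.42, limma adjusted p 0.743), but this value changed sign in 5 of 16 alternatives. It was -0.22 with TMM factors, -0.35 with library size within 1 Mb, -0.72 with capped fragments and -0.0071 without DN replicate 2. With each captured fragment counted once it was -0.95 and passed in limma (adjusted p 0.00368). Without these changes 0 of 9 regions differed between the cell types in this contrast in limma (2 at an unadjusted p under 0.05). In edgeR 1 of 9 did, the part between INT and the stretch (adjusted p 0.0115). There the difference TEA minus Ed was -0.73 and -1.19 in DN and -2.11 and -1.99 in B, so the cell types differed by 1.09 (SE 0.42, limma adjusted p 0.104). The share of INT reads was higher in DN than in B from both viewpoints, as was that of all reads within 1 Mb, which in B was 15.7% and 17.0% from TEA and 18.8% and 17.7% from Ed. DN and B samples also differ in genotype and tissue, and these cannot be told apart from cell type.

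**Figure D5:**
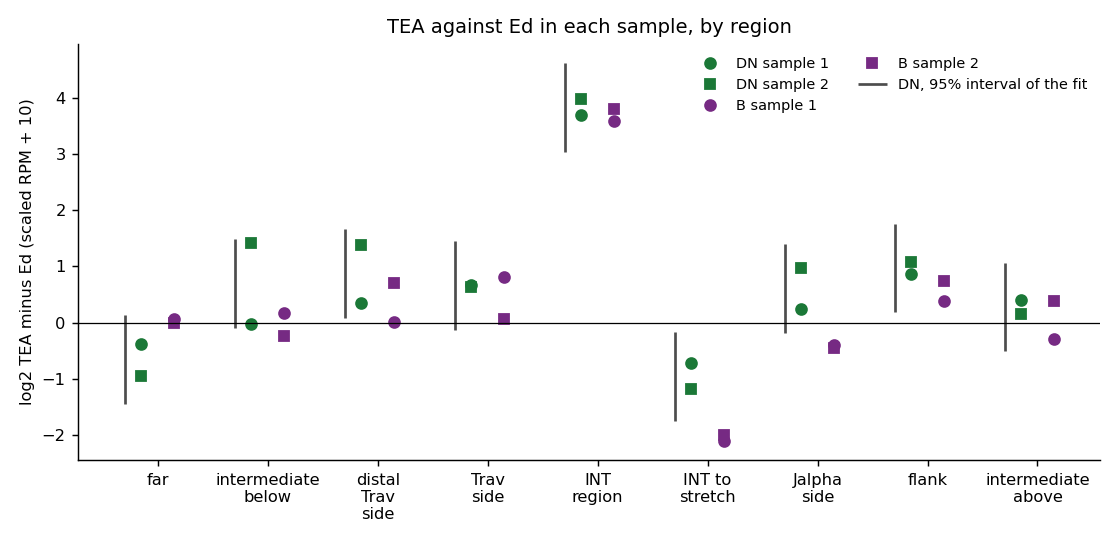
Log2 difference TEA minus Ed (scaled RPM + 10) by region in each DN sample (green) and each B sample (purple), with the 95% interval of the DN fit as a grey bar. In the INT region all 4 samples stand between 3.58 and 3.97, and on the Jalpha side the 2 DN samples stand above 0 and the 2 B samples below.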

How the data were processed

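Deposited values are mapped reads per HindIII fragment, scaled by the authors to each library's mapped total (RPM). Per the submitters' processing notes CASAVA, Bowtie and mm9 were used; versions and settings are not given in the sources used here. In each library 100% of values were whole multiples of the smallest (within 0.01 read), which gave the reads. For TEA in DN replicate 2 that step is close to a rounding step, so its depth is less certain. Fragments were assigned by midpoint, absent fragments set to 0, and values scaled to chromosome 14 reads outside 54752000 to 54784000.

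Sums were fitted with limma 3.58.1 (R 4.3.3) on log2 of the scaled RPM plus 10, two-sided, with replicate as a block, a mean-variance trend for windows only, and Benjamini-Hochberg adjustment at 0.05. Fold changes on this scale understate low values. In the main region fits, of DN and of DN minus B, limma gave every region the same SE, so their p-values rest on a pooled spread. Windows needed a mean of 50. Named are all regions, the 10 called windows per direction ranked first by adjusted p, then by p (both replicates of one sign; the 5 largest differences where none passes), and 5 fragments per viewpoint; further fragments were chosen after their values were seen. The pairing comes from the shared template in the labels. Deviations of TEA and Ed replicates correlated at -0.018 over 183 windows. Each DN replicate is one sequencing folder per the file headers. edgeR 4.0.16 on recovered reads, the selections by B reads and leaving out the heaviest far fragment were added after the data were seen; edgeR called 5 regions, 14 windows for TEA and 0 for Ed. Regions, lists and tests were chosen with earlier results of these data known. Code was tested on simulated data. Tables and figures used Python 3.11.15, pandas 2.3.3, scipy 1.17.1 and matplotlib 3.10.9.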

Additional observations from a re-analysis of the deposited data

Results flagged for a closer look

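The Jalpha side differed in direction between the cell types. TEA minus Ed was 0.25 and 0.97 on the log2 scale in the 2 DN samples and -0.40 and -0.45 in the 2 B samples. The cell types differed by 1.03 (SE 0.42), which did not pass in limma over the 9 regions (adjusted p 0.104) or in edgeR (adjusted p 0.274). With library size over all chromosomes it was 1.40 (limma adjusted p 0.0305). The Jalpha fragment bordering the stretch, 54783906 to 54793249, took 1.13% and 0.461% from Ed and 0.501% and 0.235% from TEA in DN, and 1.39% and 1.46% from Ed and 0.228% and 0.313% from TEA in B. With the stretch widened by 20 kb the difference between cell types was -0.41 (limma adjusted p 0.731).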

How the results depend on the processing

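Of 587 alternative values, 449 kept their direction and their side of the threshold or stayed within the spread between replicates. Where a cause is not named, it was not tested. The INT difference of 3.83 kept its direction and call in 19 of 23 alternatives. It was 2.75 with INT taken as 20 kb around its viewpoints (limma adjusted p 0.108, 0 regions called), and 0.79 and 0.18 with fragments selected by reads in 1 or more or in every B library (1 and 0 regions called). Those selections by B reads leave out the 3 fragments above INT2 that held most INT reads from TEA.

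Counting each captured fragment once uses the number of captured fragments as library size, which is larger for TEA (5520 and 4242 against 1712 and 1794). The log2 difference was then -1.07 for INT, -0.92 for the Trav side, -0.50 for the distal Trav side, -1.42 between INT and the stretch, -0.96 for the Jalpha side, -0.28 for the flank, -0.021 and 0.12 for the intermediate region below and far chromosome 14, with 5 regions called. Windows called for Ed were then 45, and the windows from 54.43, 54.7 and 55.1 Mb stood at -0.38, -1.16 and -0.46. DN minus B stood at -0.95 for INT, -0.37 for the Jalpha side and -0.20 between INT and the stretch, with 2 regions called.

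Library size moved the median 10 kb window from 2.66 to 2.59 within 1 Mb, 2.12 over all chromosomes and 1.90 with TMM. Within 1 Mb, the part between INT and the stretch was -1.28 (called), intermediate above -0.048, DN minus B for INT -0.35, with 2 regions and 2 Ed windows called. Over all chromosomes, the Trav side was 0.99 and the Jalpha side 0.94 (both called), with 6 regions (6 higher from TEA), 0 and 0 windows, and 2 regions for DN minus B. With TMM, the part between INT and the stretch was -1.45 and far chromosome 14 -1.16 (both called), intermediate above -0.22, DN minus B for INT -0.22, with 3 regions (1 higher from TEA and 2 from Ed), 25 TEA windows and 2 Ed windows.

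With capped fragments 2 regions, 59 TEA windows and 4 far windows for Ed passed, with DN minus B of -0.72 for INT and 1 region called there. With a trend for regions 5 regions passed (Trav side 0.65, between INT and the stretch -0.96), and in edgeR 5 regions (0.65 and -0.96), 14 and 0 windows and 1 region for DN minus B. With the stretch widened, the Jalpha side was 0.79 and the part between INT and the stretch -0.52 (both called), 4 regions passed, DN minus B for the Jalpha side was -0.41 and the side balance within 100 kb 0.17. Without the heaviest far fragment of Ed replicate 2, 2 regions passed (between INT and the stretch -1.02). TEA and Ed windows numbered 105 and 3 at 5 kb, 10 and 0 at 20 kb, and 64 and 2 with a pseudocount of 50. Ed windows were 0 without a filter or without a trend.

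Without the replicate block, which the shared template supplies, INT stayed called (limma adjusted p 5.1e-05), 1 region passed, and Ed windows numbered 2. It changed no other call of a region. With 1 library or sample left out in turn, and a lone library assumed to vary like the others, TEA windows ranged from 33 (without TEA replicate 2) to 73 (without Ed replicate 2, and 70 without Ed replicate 1), Ed windows from 0 to 7, far windows from 0 to 1 for TEA and 0 to 2 for Ed, regions called from 1 to 2, and for DN minus B from 0 to 2. The part between INT and the stretch was -1.19 without replicate 1 and -0.73 without replicate 2. The intermediate region below ranged from -0.37 to 1.75 and DN minus B for INT from -0.0071 to 0.28. In Ed replicate 1, with the fewest reads, shares below 0.00290% could not be told from 0.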

Other observations

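At a few places the viewpoints led on fragments that touch each other, chosen here after their values were seen. On the distal Trav side, Ed had 0.345% and 0.105% at 53970040 to 53976409 and TEA 0.0605% and 0.0628%. On the next fragment, 53976416 to 53977756, TEA had 0.202% and 0.345% and Ed 0 reads and 0.00696%. A Trav side fragment had the same Ed shares as 53970040 to 53976409, with 0.0578% and 0.0614% from TEA. The source of the equal values was not tested, so the opposite orders at this distal Trav pair are not secure. On the flank, TEA had 0.299% and 0.550% at 55064222 to 55071476 and Ed 0 reads and 0.000696%. On the next fragment, 55071483 to 55076479, Ed had 0.308% and 0.714% and TEA 0.0852% and 0.280%.

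Over 183 windows the profiles of the replicates correlated at r = 0.71 for TEA and 0.72 for Ed, and those of TEA and Ed in the same replicate at 0.55 and 0.51. TEA and Ed of different replicates correlated at 0.55 and 0.52, about as much as those of the same replicate. These are descriptions across windows, which share libraries and are not independent.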
